A study of Mus musculus with 57 samples.

Results

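Thermogenesis that does not use Ucp1 has been linked to futile cycles, in which ATP is spent with no net product. The 8 genes described here encode enzymes, a transporter and a pump of the creatine and the calcium cycle: Ckb, Ckmt1, Ckmt2, Gatm, Gamt, Slc6a8, Alpl and Atp2a2. They were chosen by gene symbol and not by a measured value, although earlier results of these data were known. All 8 were found among the 52853 genes of the count tables. RNA was sequenced from brown adipose tissue (BAT) and inguinal white adipose tissue (inguinal WAT) of male mice on a C57BL/6J background. Knock-in (KI) mice were homozygous for R707W in Mfn2, a protein of mitochondrial fusion, and came from a line with 1 CRISPR-Cas9 founder. Wild-type (WT) mice were their littermates. From the age of 5 weeks by the labels, while legends of the study give a later age for some mice, they had been given either chow or a high-fat diet (HFD, 45% of energy as fat) for 6 months. The groups were BAT on HFD with 6 WT and 6 KI mice, inguinal WAT on HFD with 8 WT and 8 KI mice, and inguinal WAT on chow with 7 WT and 6 KI mice. For inguinal WAT on HFD, 2 libraries per mouse had been combined into 1 column of counts, so that this tissue had the deepest columns. Totals were between 8042591 and 25680411 counts per mouse.

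In the creatine cycle, creatine is made by Gatm and Gamt, taken up by Slc6a8, phosphorylated by creatine kinases with ATP, and released again when phosphocreatine is split. The kinases are the cytosolic Ckb and, in muscle, Ckm, together with the mitochondrial Ckmt1 and Ckmt2. The phosphatase Alpl, known as TNAP, has been described as the enzyme that splits phosphocreatine in thermogenic adipocytes. In the calcium cycle, the pump Atp2a2 (SERCA2) moves calcium into the endoplasmic reticulum at the cost of ATP, and ryanodine or IP3 receptors let it out again.

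The sequence that matters for reading the values of Ckb is that of a copy. Gm12892, a processed pseudogene at chr4:122008193-122009338 on the plus strand of GRCm38, was 96.8% identical to the coding transcript of Ckb over 1149 aligned bases, with 31 mismatches. The first 150 bases of the coding part of Ckb, at chr12:111671809-111671958 on the minus strand, and the same stretch of Gm12892, at chr4:122008193-122008342, are shown because they are as long as 1 sequenced read. Capitals mark the 7 bases that differ.
Ckb: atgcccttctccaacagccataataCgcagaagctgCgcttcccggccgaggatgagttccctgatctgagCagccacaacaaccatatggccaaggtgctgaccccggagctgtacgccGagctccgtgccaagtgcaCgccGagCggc
Gm12892: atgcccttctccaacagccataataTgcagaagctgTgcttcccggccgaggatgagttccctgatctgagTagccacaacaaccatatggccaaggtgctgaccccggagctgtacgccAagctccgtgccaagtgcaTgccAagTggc
Over the whole alignment, 101 of the 1000 windows of 150 bases had no difference at all, and the longest identical run was 250 bases, so that some reads cannot be assigned to either gene by their sequence. The copy had 93 to 597 counts per mouse, which was 16.6% to 35.0% of the count of Ckb in the same mouse. Among 16201 genes, its log2 level, taken around the mean of each group, was also the most like that of Ckb over the 41 mice (Pearson's r = 0.91, given as a description). The plot of Ckb against Gm12892 counts shows both genes high in the same libraries. How far reads of Ckb had been counted for Gm12892 was not tested. The other processed copies, Ckb-ps1 and Ckb-ps2, were 87.7% and 88.6% identical and had no count.

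**Figure D1:**
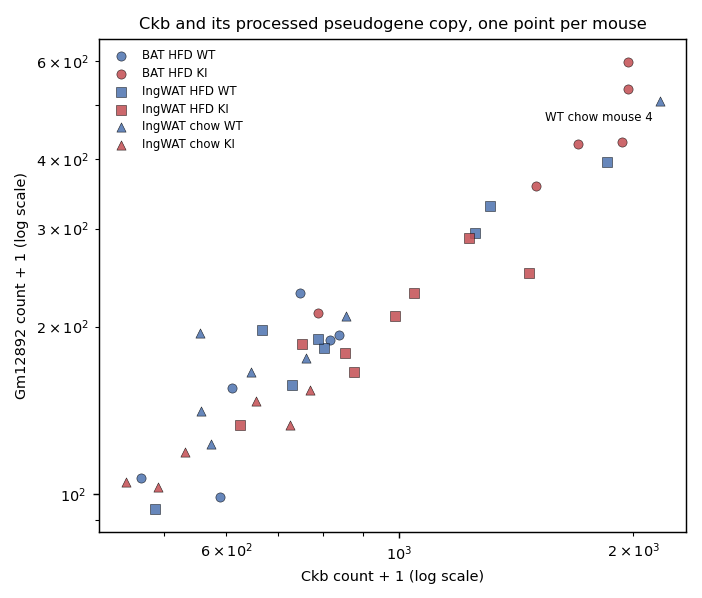
Counts of Ckb (x axis) and of its processed pseudogene Gm12892 (y axis) in each of the 41 mice, with 1 added to each count and both axes on a log scale. Colour gives the genotype and marker shape the tissue and diet, and the copy had between 16.6% and 35.0% of the count of Ckb in every mouse.

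The promoter of Ckb is shown because Ckb had the larger of the differences called between the genotypes. RefSeq promoters (GRCm38.p6) were at hand for 6 of the 8 genes. The 250 bases before the start of Ckb, at chr12:111672339-111672588 on the minus strand, are printed 5′ to 3′ with a TATAAA match and a pair of CCAAT matches in capitals.
Ckb promoter: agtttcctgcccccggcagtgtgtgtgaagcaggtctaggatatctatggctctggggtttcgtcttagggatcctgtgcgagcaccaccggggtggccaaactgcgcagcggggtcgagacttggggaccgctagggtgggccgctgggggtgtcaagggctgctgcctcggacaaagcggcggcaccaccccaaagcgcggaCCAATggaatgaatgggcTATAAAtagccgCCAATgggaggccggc
The TATAAA match begins 28 bases before the start, and the CCAAT matches begin 46 and 16 bases before it, without overlap. On either strand, TATAAA was present in 12.4% and CCAAT in 33.8% of all 32851 promoters of this length. The letters AAGGTCA (a nuclear receptor element, in 4.08% of promoters) and TGACGTCA (the cyclic AMP element, in 1.55%) were not in this window. A match is a description of the letters and not evidence of binding.

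Levels are given as RPKM, reads per kilobase of transcript and per library size, on libraries scaled by the trimmed mean of M-values (TMM), which allows genes of different length to be compared. Differences are log2 fold changes from edgeR's quasi-likelihood test, and a gene is called at a Benjamini-Hochberg adjusted p below 0.01 over all genes tested. The test includes a filter on low counts. Of the 8 genes, 6 passed it in every comparison, Ckmt2 passed it in the comparisons with inguinal WAT on HFD, and Ckmt1 passed it in none. The labelled tissues carried their markers: 8 brown adipocyte markers summed to between 15911 and 32070 RPKM in BAT and to between 33.2 and 1552 RPKM in inguinal WAT.

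Several libraries stood apart in their cell type markers. In the chow-fed KI mouse 4 the 22 skeletal muscle markers summed to 48696 RPKM, against 79.7 to 609.9 RPKM in the other 12 libraries of that tissue and diet. The counts of this library held 113414 for Ckm and 101371 for Acta1, the actin of skeletal muscle. Muscle markers were also raised in BAT, with sums of 2343 and 2580 RPKM in WT mice 1 and 2, 205 and 784 RPKM in KI mice 4 and 6, and 59.1 to 96.7 RPKM in the other 8. In inguinal WAT on HFD, muscle markers were raised in both genotypes, with sums of 3218 and 1534 RPKM in KI mice 3 and 5 and of 992, 946 and 556 RPKM in WT mice 1, 2 and 7. A limit of 500 RPKM for this sum, chosen after seeing the data and applied to each group alike, leaves out 11 libraries: WT mice 1 and 2 and KI mouse 6 in BAT, the 5 just named in inguinal WAT on HFD, and WT mice 2 and 6 and KI mouse 4 on chow. The 4 lymphocyte markers summed to 213 RPKM in KI mouse 2 and to 137.5 and 80.5 RPKM in WT mice 2 and 6 on HFD, and to 132 RPKM in the chow-fed KI mouse 3, against group medians of 1.67 to 3.43 RPKM. The chow-fed WT mouse 4 differed in another way, with 67.8 RPKM for the 5 epithelial markers, 1182 RPKM for the 6 macrophage markers and 4.05 RPKM for the 4 Schwann cell markers, against group medians of 0.228, 323 and 52.7 RPKM. In whole tissue, fewer cells of a type and less RNA per cell cannot be told apart. Mfn2 itself, which carries the change, had 68.4 ± 2.50 RPKM in BAT of WT and 86.4 ± 13.7 RPKM in BAT of KI mice (SD, n = 6 each) and was not called there (log2 fold change 0.29, SE 0.109, adjusted p = 0.113). In inguinal WAT its log2 fold change was also positive and not called. It was 0.34 on HFD (SE 0.0901, adjusted p = 0.0114) and 0.36 on chow (SE 0.123, adjusted p = 0.0840).

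In BAT on HFD, 2 of the 6 genes tested were called, both higher in KI mice: the kinase Ckb and the creatine transporter Slc6a8. Of all 13267 genes tested in BAT, 1.83% were called and 1.36% were called higher. DESeq2 called the same number, 2. The median log2 fold change was 0.01 over the 6 genes and -0.01 over all genes tested.

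Ckb (ENSMUSG00000001270) is the cytosolic, brain-type creatine kinase and lies at chr12:111669361-111672338 on the minus strand. In BAT of WT mice its lowest, median and highest levels were 22.5, 32.4 and 47.5 RPKM. In BAT of KI mice they were 41.4, 88.4 and 109 RPKM. The groups overlapped through a single KI animal, mouse 5, with 787 counts, while the other 5 KI mice had 1497 to 1967 counts and lay above all WT mice, which had 466 to 836 counts. The mean was 34.7 ± 9.69 RPKM in WT and 82.0 ± 24.7 RPKM in KI mice (SD, n = 6 each). On the log2 scale the difference was 1.20 (SE 0.229, adjusted p = 0.00699), a 2.30-fold higher level. Without KI mouse 5 it was 1.35 with an adjusted p of 5.6e-04. That mouse held the KI value nearest to WT mice. Leaving it out could only widen the difference, so this fit is no check of the call. Without the 3 BAT libraries above the muscle limit the log2 fold change was 1.19 with an adjusted p of 0.0194. Without KI mouse 4 as well it was 1.23 with an adjusted p of 0.0314. Without the filter on low counts it was 1.21 with an adjusted p of 0.0187. With the counts of Gm12892 added it was 1.23 with an adjusted p of 0.00611. Leaving out 1 mouse at a time gave log2 fold changes of 1.11 to 1.35, and the call was kept in 5 of 12 fits. It was lost without WT mouse 2, 3 or 6 or KI mouse 1, 2, 3 or 4, with adjusted p values of 0.0105 to 0.0215.

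Slc6a8 (ENSMUSG00000019558), which imports creatine across the plasma membrane, lies at chrX:73673150-73682502 on the plus strand. Its lowest, median and highest levels in BAT were 6.87, 8.32 and 10.8 RPKM in WT mice. In KI mice they were 11.4, 14.7 and 19.0 RPKM. The groups did not overlap, which was so for 3.69% of the genes tested in BAT. The mean was 8.55 ± 1.47 RPKM in WT and 14.7 ± 2.95 RPKM in KI mice (SD, n = 6 each), and the log2 fold change was 0.73 (SE 0.145, adjusted p = 0.00699). Leaving out 1 mouse at a time gave 0.66 to 0.82, and the call was kept in 4 of 12 fits. It was lost without WT mouse 3, 4, 5 or 6 or KI mouse 1, 2, 3 or 5, with adjusted p values of 0.0107 to 0.0204. The 2 WT and 2 KI libraries with most muscle transcripts were the 2 highest WT and the 2 lowest KI values of Slc6a8. Without these 4 libraries the log2 fold change was 1.04 (SE 0.132, adjusted p = 8.6e-04), and without the 3 above the limit it was 0.97 (SE 0.143, adjusted p = 0.00163). The libraries left out held the values nearest to the other genotype. Leaving them out could only widen the difference, so these fits are no check of the call.

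The other 4 genes tested in BAT were not called. Gatm, which makes guanidinoacetate in the first step of creatine synthesis, had 19 to 30 counts in WT and 11 to 63 counts in KI mice. Its log2 fold change was -0.15, with a 95% interval of -0.78 to 0.47. Gamt, which methylates guanidinoacetate to creatine, had a log2 fold change of -0.22 (interval -0.63 to 0.19). Alpl had one of -0.23 (interval -0.52 to 0.07), and Atp2a2 one of 0.17 (interval -0.08 to 0.43). All 4 genes overlapped between the genotypes. The plot of levels per mouse shows Slc6a8 without overlap in BAT and Ckb with a small overlap, beside the overlap of the other 4 genes.

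**Figure D2:**
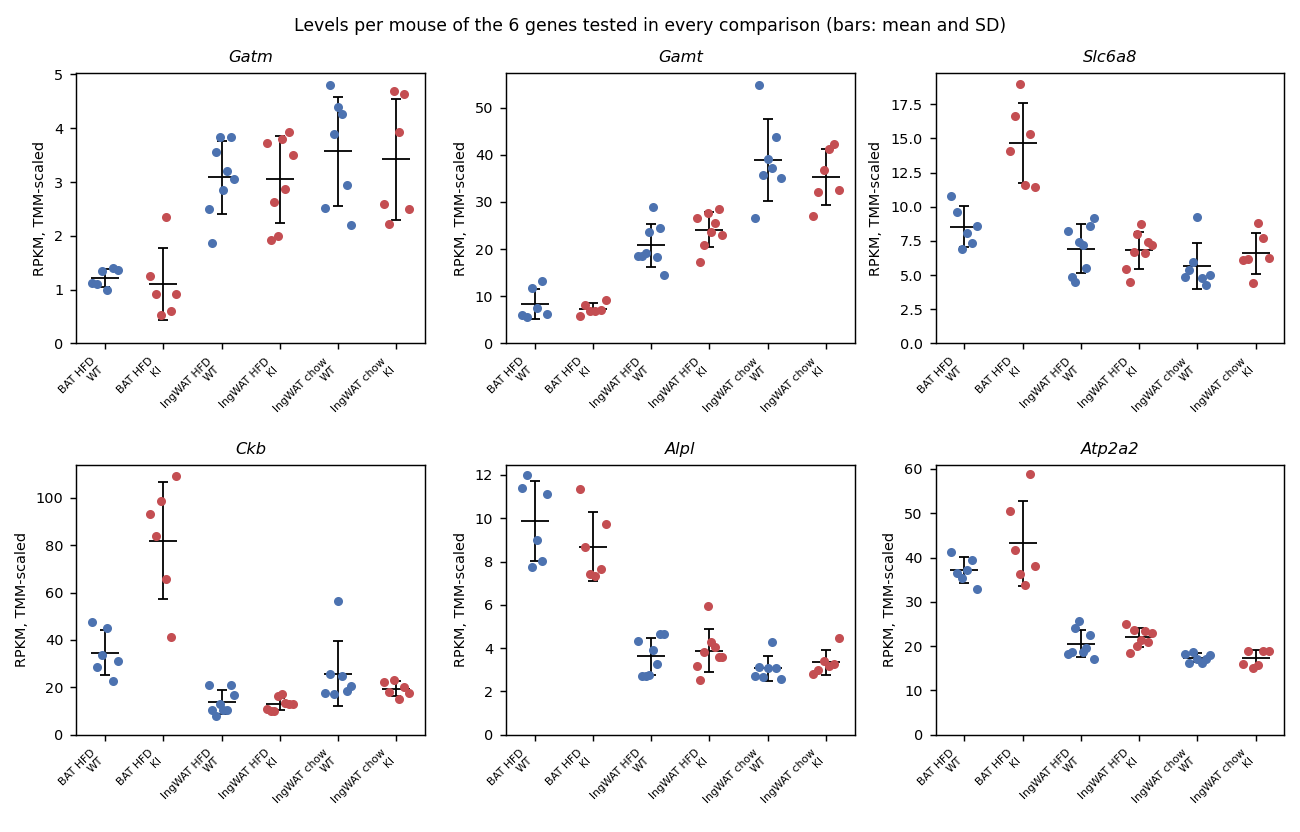
Levels of 6 of the 8 genes in each mouse (points, RPKM on TMM-scaled libraries) by tissue, diet and genotype, with the mean and SD of each group. In BAT, the KI mice lie at 11.4 to 19.0 RPKM for Slc6a8 and at 41.4 to 109 RPKM for Ckb, against 6.87 to 10.8 and 22.5 to 47.5 RPKM in WT mice.

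In inguinal WAT, none of the 8 genes was called between the genotypes on either diet. On HFD, 7 were tested, edgeR and DESeq2 called 0, and 0 had an unadjusted p below 0.05, while 11.5% of all 16471 genes tested were called. On chow, 6 were tested with the same 3 counts of 0, and 3.23% of 14629 genes were called. Over the genes tested the median difference (log2) was 0.10 on HFD and -0.04 on chow, against 0.01 and -0.01 over all genes. For the genes called in BAT the intervals in inguinal WAT were as follows. For Ckb the difference on the log2 scale was -0.09 on HFD (interval -0.47 to 0.30). Slc6a8 had one of -0.02 on HFD (interval -0.32 to 0.29).

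On chow, Ckb had its lowest, median and highest levels at 17.1, 20.7 and 56.3 RPKM in WT and at 15.1, 19.1 and 23.2 RPKM in KI mice. The highest value was that of WT mouse 4, the library with epithelial and macrophage transcripts, which had 2161 counts against 554 to 855 in the other 6 WT mice. The log2 fold change was -0.43 (interval -0.94 to 0.09), and -0.09 (SE 0.128) without this mouse. The part of these transcripts in the level of Ckb was not tested. Slc6a8 was also highest in this library among WT mice, with 9.28 RPKM against 4.31 to 5.96 RPKM. Its log2 fold change on chow was 0.21 (adjusted p = 0.542) with all mice, 0.39 (adjusted p = 0.106) without WT mouse 4, and 0.11 (adjusted p = 0.786) without KI mouse 4.

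The remaining values in inguinal WAT overlapped between WT and KI mice for each gene. Gamt, in which the HFD groups were furthest apart among these, had a mean of 20.8 ± 4.57 RPKM in WT and 24.1 ± 3.78 RPKM in KI mice on HFD (SD, n = 8 each). On the log2 scale the difference was 0.22 on HFD (interval -0.02 to 0.47) and -0.15 on chow (interval -0.44 to 0.14). Gatm had log2 fold changes of -0.01 on HFD and -0.07 on chow, Alpl of 0.10 and 0.11, and Atp2a2 of 0.10 and -0.02. Leaving out the chow-fed KI mouse 4 changed the mean level of the 6 genes tested on chow in its group by less than their SD. The change was from 19.4 to 20.3 RPKM for Ckb, from 35.3 to 34.1 RPKM for Gamt and from 17.3 to 17.5 RPKM for Atp2a2. For Slc6a8, in which this mouse had the highest KI value (8.83 RPKM), it was from 6.58 to 6.13 RPKM.

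**Figure D3:**
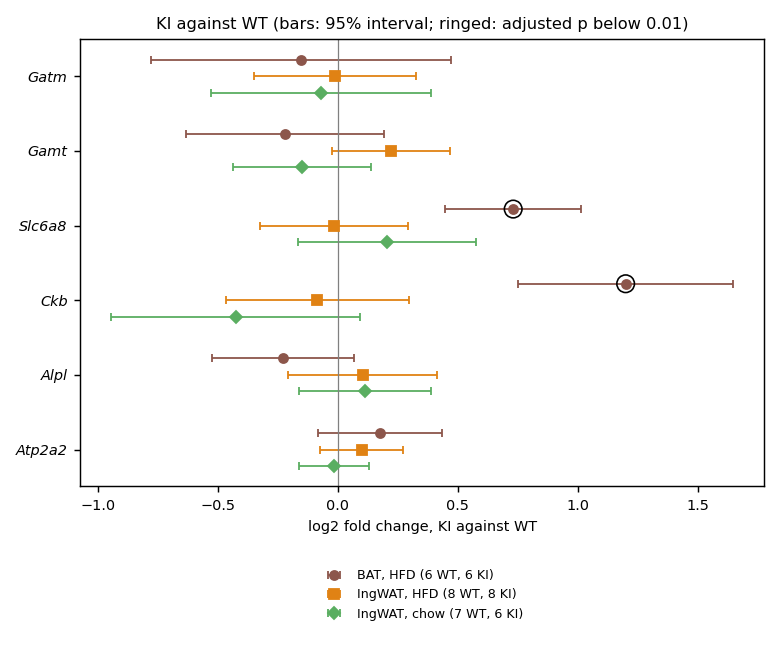
Log2 fold change of KI against WT mice (x axis) for 6 of the 8 genes in BAT on HFD, inguinal WAT on HFD and inguinal WAT on chow, with 95% intervals. Ringed points passed an adjusted p of 0.01, which were Slc6a8 (0.73) and Ckb (1.20) in BAT.

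Whether the KI effect differed between the tissues on HFD was tested as an interaction in 1 fit of the 4 groups. Ckb was called: its log2 fold change was greater in BAT than in inguinal WAT by 1.32 (SE 0.314, adjusted p = 0.00920), and 2.82% of 17214 genes were called. The difference for Slc6a8 was 0.79 (SE 0.228, adjusted p = 0.0312) and was not called; at an adjusted p of 0.05, 7.44% of all genes would pass. The other 5 genes tested were not called, with differences of -0.41 for Gamt, -0.29 for Alpl, -0.12 for Gatm, 0.11 for Atp2a2 and -3.60 for Ckmt2, the last with an SE of 2.04. The call of Ckb stood close to the threshold, and 10 of 28 fits without 1 mouse kept it. It was lost, with adjusted p values of 0.0124 to 0.0195, without WT mouse 2, 3, 5 or 6 or KI mouse 1, 2, 3 or 6 of the BAT groups, and without WT mouse 1, 4, 7 or 8 or KI mouse 1, 2, 3, 6, 7 or 8 of the inguinal WAT groups. It was also lost with mice of equal number as a block (1.10, adjusted p = 0.0726), without the filter on low counts (1.31, adjusted p = 0.0245), without mitochondrially encoded genes (1.32, adjusted p = 0.0110) and in 1 fit of all 6 groups (1.33, adjusted p = 0.0121). Without the 8 libraries of these groups above the muscle limit, the difference for Ckb was 1.08 (adjusted p = 0.0697) and that for Slc6a8 was 1.03 (adjusted p = 0.0231). With the 4 BAT libraries named above and KI mice 3 and 5 of inguinal WAT left out instead, Ckb had 1.37 (adjusted p = 0.0356) and Slc6a8 had 1.16 (adjusted p = 0.00832). This choice was uneven, as it kept WT mice 1, 2 and 7 of inguinal WAT, which were above the limit. It also left out the BAT values of Slc6a8 nearest to the other genotype. Slc6a8 did not pass 0.01 with all mice or with the even limit. The source material does not say whether the BAT and the inguinal WAT came from the same mice, and the fit takes them as independent.

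The effect of the KI did not pass the threshold for a difference between HFD and chow in inguinal WAT for any of the 7 genes tested. EdgeR and DESeq2 called 0, 1 had an unadjusted p below 0.05, and 0.632% of 17400 genes were called. That gene was Ckmt2, with a difference of -5.90 (SE 2.31, adjusted p = 0.179). Without the chow-fed KI mouse 4 the difference was 1.40 (SE 2.22), so that 1 library set its size and sign. For Ckb the difference was 0.35 (adjusted p = 0.666), and 0.02 (adjusted p = 0.982) without the chow-fed WT mouse 4.

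The tissues differed more than the genotypes did. BAT and inguinal WAT were in separate tables with 1 and 2 libraries per mouse, so that tissue and table cannot be told apart. In WT mice on HFD, 3 genes were called higher in BAT and 2 lower, of 7 tested, against 55.9% called over all genes (26.9% higher and 29% lower). In KI mice, 4 were called higher and 2 lower, against 59.1% (28.4% higher and 30.6% lower). The kinase Ckb was higher in BAT by a log2 fold change of 1.32 in WT (SE 0.221) and of 2.64 in KI mice (SE 0.225). Alpl was higher by 1.44 in WT and 1.15 in KI mice, and Atp2a2 by 0.85 and 0.96. For these 3 genes, each mouse had a higher RPKM level in BAT than any mouse of its genotype in inguinal WAT on HFD. The tissues were without overlap for 39.3% of all genes in WT and 40.6% in KI mice. Both enzymes of creatine synthesis were lower in BAT. Gatm was lower by -1.34 in WT and -1.46 in KI mice on the log2 scale. Gamt was lower by -1.32 and -1.73. Slc6a8 was called higher in BAT of KI mice (1.09, SE 0.159) but not of WT mice (0.30, adjusted p = 0.0995), and the test of the difference between those values is the interaction above. The comparison within WT mice and the one within KI mice used separate mice.

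On the RPKM scale the order of the genes in BAT of WT mice was Atp2a2 (37.1 ± 2.91 RPKM) and Ckb (34.7 ± 9.69), then Alpl (9.87 ± 1.86), Slc6a8 (8.55 ± 1.47) and Gamt (8.35 ± 3.26), then Gatm (1.22 ± 0.172; SD, n = 6 throughout). The lengths are those of the deposited tables, which give 2895 bases for Ckb while its coding transcript shown above has 1472, so the place of Ckb beside Atp2a2 depends on the length used, as do the shares of the kinases below. Neighbours inside the first pair and inside the following 3 genes lay within their spreads. In BAT of KI mice Ckb (82.0 ± 24.7 RPKM) stood above Atp2a2 (43.2 ± 9.59), and Slc6a8 (14.7 ± 2.95) above Alpl (8.69 ± 1.58). In inguinal WAT on chow, Gamt led in both genotypes, with 38.9 ± 8.73 RPKM in 7 WT and 35.3 ± 5.85 RPKM in 6 KI mice. Over the 6 groups, Ckb and Slc6a8 were highest in BAT of KI mice, Atp2a2 was highest in the BAT groups, which did not differ beyond their spread, and Gamt was highest in the groups on chow.

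**Figure D4:**
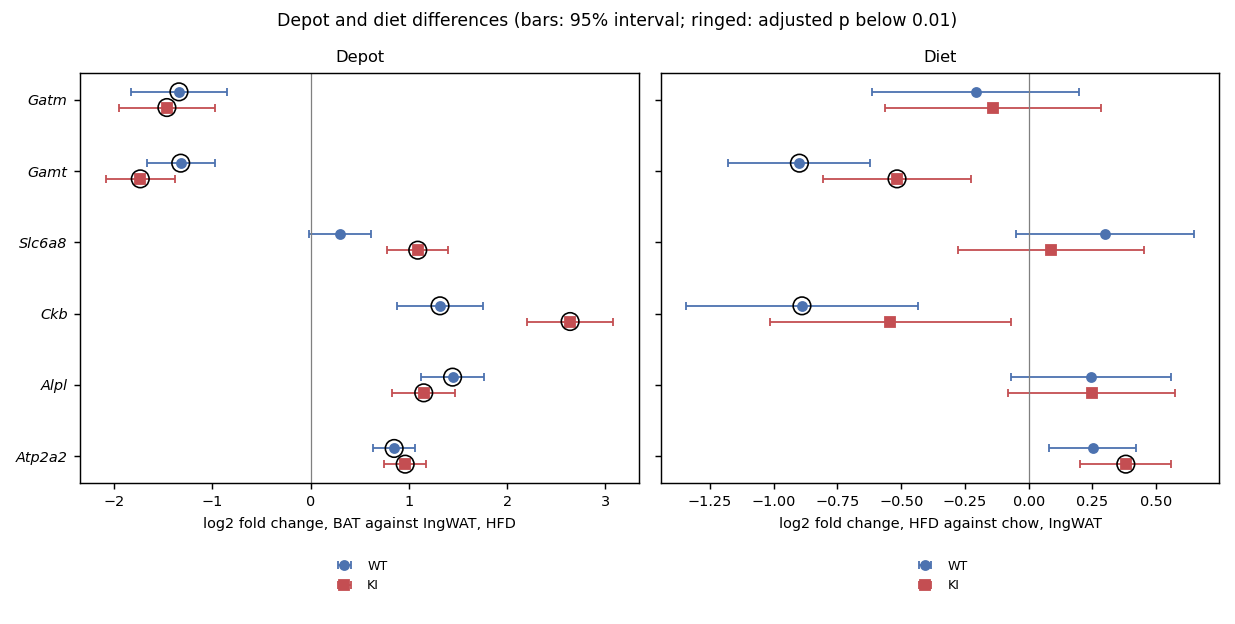
Log2 fold changes (x axes) of BAT against inguinal WAT on HFD (left) and of HFD against chow in inguinal WAT (right) for 6 of the 8 genes in WT and KI mice, with 95% intervals and rings at an adjusted p below 0.01. Gatm and Gamt are lower in BAT in both genotypes, and Gamt is the gene called in both genotypes for diet.

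Diet was compared in inguinal WAT between 2 tables, and here too diet and table, with 2 libraries per mouse on HFD and 1 on chow, cannot be told apart. Gamt was lower on HFD in both genotypes. In WT mice its log2 fold change was -0.90 (SE 0.142, adjusted p = 9.9e-06), from 38.9 ± 8.73 RPKM on chow (n = 7) to 20.8 ± 4.57 RPKM on HFD (n = 8, SD), with a small overlap of the ranges. In KI mice it was -0.52 (SE 0.147, adjusted p = 0.00554), and -0.47 (adjusted p = 0.0179) without the chow-fed KI mouse 4 and -0.46 (adjusted p = 0.0184) without the chow-fed KI mouse 5. Ckb was called lower on HFD in WT mice (-0.89, SE 0.232, adjusted p = 0.00305). Without the chow-fed WT mouse 4 this was -0.57 (adjusted p = 0.0123). In KI mice Ckb had -0.54 (adjusted p = 0.0707). Atp2a2 was called higher on HFD in KI mice (0.38, SE 0.0909, adjusted p = 0.00116). In WT mice it had 0.25 (adjusted p = 0.0212). The ranges of the diets overlapped for each of these genes. Without the libraries above the muscle limit, Atp2a2 in KI mice had 0.34 (adjusted p = 0.0174) and Gamt had -0.43 (adjusted p = 0.0394). Of all genes, 28.2% were called for diet in WT mice and 30.6% in KI mice, against 2 of 7 of the genes described here in each genotype.

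The mitochondrial kinases were near 0 in fat outside the libraries with muscle transcripts. Ckmt1 (ENSMUSG00000000308, chr2:121357714-121363737, plus strand), the ubiquitous form, had at most 17 counts in any mouse, in BAT of WT mouse 5, and no more than 13 counts elsewhere. Ckmt2 (ENSMUSG00000021622, chr13:91853387-91876885, minus strand), the sarcomeric form, had 1301 counts in the chow-fed KI mouse 4 and 0 to 8 counts in the other 12 mice of that tissue and diet. In BAT it had 161 and 285 counts in WT mice 1 and 2 and 0 to 4 counts in the other 4 WT mice. In BAT of KI mice it had 19 and 27 counts in mice 4 and 6 and 0 or 1 count in the others. These are the same 4 libraries that had the highest sums of muscle markers in BAT. In inguinal WAT on HFD the highest counts were 313 and 195, in KI mice 3 and 5, and the log2 fold change of KI against WT mice was 0.44 (SE 1.18, adjusted p = 0.845). Counts were also raised in WT mice 1, 2 and 7, with 87, 87 and 149. Leaving out only the 2 KI mice gave -3.23 (SE 1.07, adjusted p = 0.0525), a value set by removal from 1 group, and without all 5 libraries above the muscle limit Ckmt2 did not pass the filter on low counts.

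The levels of Ckmt2 followed those of muscle genes from mouse to mouse. The 3 genes most like it over the 41 mice, each around its group means, were Myot (r = 0.98), Eef1a2 (r = 0.97) and Xirp2 (r = 0.97), and without the chow-fed KI mouse 4 they were Myot, Eef1a2 and Myh1 (r = 0.97, 0.96 and 0.96). Myot, Xirp2 and Myh1 encode proteins of the sarcomere. The points share their libraries, and these correlations are a description. The mean level of Ckmt2 in KI mice on chow was 14.4 ± 35.0 RPKM with 6 mice and 0.0825 ± 0.185 RPKM with the 5 mice other than mouse 4. Ckm, the muscle creatine kinase, behaved alike in these libraries: of the summed RPKM of Ckb, Ckm, Ckmt1 and Ckmt2, Ckm made up 97.4% in the chow-fed KI mouse 4 and 79.3% in BAT of WT mouse 2, while 5 of the 12 BAT libraries had no count of Ckm. The median share of Ckb was 94.3% in BAT of WT and 99.4% in BAT of KI mice. In inguinal WAT on HFD it was 46.5% in WT and 84.9% in KI mice, with ranges of 13.3% to 98.0% and 5.15% to 99.8%.

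**Figure D5:**
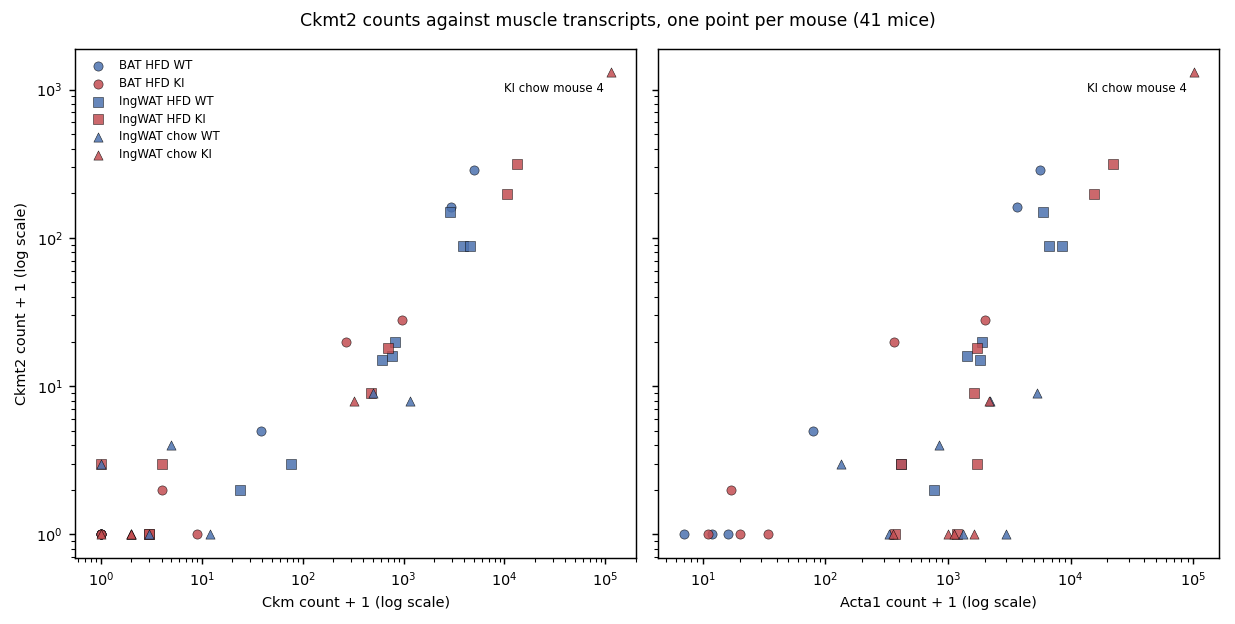
Counts of Ckmt2 (y axes) against counts of the muscle genes Ckm (left) and Acta1 (right) in each of the 41 mice, with 1 added and all axes on a log scale. The chow-fed KI mouse 4 lies highest with 1301 counts of Ckmt2, and mice without counts of Ckmt2 lie at the bottom.

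The other genes are placed as follows. Gatm (ENSMUSG00000027199) is at chr2:122594467-122611303 on the minus strand, Gamt (ENSMUSG00000020150) at chr10:80258151-80261012 on the minus strand, Alpl (ENSMUSG00000028766) at chr4:137741733-137796384 on the minus strand and Atp2a2 (ENSMUSG00000029467) at chr5:122453513-122502225 on the minus strand. Atp2a2 overlaps the unverified transcript Gm43361 on the other strand by 4690 bases, and Gm43361 had 901 counts over all mice against 86598 for Atp2a2. Ckmt2 overlaps the antisense gene 1700119I11Rik by 613 bases, which had up to 66 counts in a mouse. The strand setting of the counting is not given in the sources used here, so that reads of overlapping genes cannot be told apart.

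For each of the 6 genes that are not tied to muscle, the likeness to other genes was weaker. Apart from its copy, Ckb was most like Aph1c (r = 0.77) and Lrrc25 (r = 0.73). Atp2a2 was most like Gm20536 (r = 0.86), Tmem106b (r = 0.82) and Bche (r = 0.81). Gamt was most like Tubb4b (r = 0.74), Akr1b8 (r = 0.72) and Olfm1 (r = 0.71), and Gatm was most like Apod (r = 0.68), Adcy1 (r = 0.68) and Fgf7 (r = 0.66). Slc6a8 was most like 5031439G07Rik (r = 0.74), Ier5l (r = 0.67) and Mapkapk2 (r = 0.65), and Alpl was most like Wtip (r = 0.71), Spryd3 (r = 0.67) and Kdm6b (r = 0.65). Without the chow-fed KI mouse 4, Sdc1 (r = 0.70) and Pld3 (r = 0.68) replaced Ier5l and Mapkapk2 for Slc6a8. Tpi1 (r = 0.74) then replaced Akr1b8 for Gamt, and Ogn (r = 0.68) replaced Fgf7 for Gatm. The named genes stayed the same for Ckb, Alpl and Atp2a2. Among the 8 genes themselves, over all 41 mice, the closest to Ckb were Slc6a8 (r = 0.53) and Alpl (r = 0.47).

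A list of 16 other genes of creatine supply and use (arginine, methyl group and adenine nucleotide enzymes and carriers) was read beside them. In BAT, where 1.83% of all genes were called, 1 of 13 tested was called higher in KI mice and 0 lower, with a median of 0.22 (log2) over those tested. It was Vdac3, a channel of the outer mitochondrial membrane, at 33.2 ± 2.60 RPKM in WT and 52.2 ± 6.05 RPKM in KI mice (SD, n = 6 each; log2 fold change 0.61, SE 0.0987, adjusted p = 0.00177). DESeq2 called 3 of the list higher. In inguinal WAT on HFD, 4 of 16 were called higher and 1 lower, against 11.5% of all genes called. Slc16a12, a creatine transporter that also works in the outward direction, was the one called lower, with 7.26 ± 1.94 RPKM in WT and 2.65 ± 0.347 RPKM in KI mice (SD, n = 8 each; log2 fold change -1.45, SE 0.140, adjusted p = 7.0e-07). Phospho1, a phosphatase of phosphocholine and phosphoethanolamine, was called higher there, at 0.267 ± 0.0931 and 0.675 ± 0.215 RPKM (1.34, SE 0.252, adjusted p = 8.4e-04). Vdac3 (0.37) and Vdac1 (0.31) were also called higher. On chow, Phospho1 (1.64, adjusted p = 0.00188) and Vdac1 (0.59, adjusted p = 0.00804) were called higher of 14 tested and 0 lower, against 3.23% of all genes called, and Slc16a12 had -1.31 (adjusted p = 0.0230). DESeq2 called 5 higher and 1 lower on HFD, and 4 higher and 2 lower on chow. The share of all genes that DESeq2 called is not given, so its counts here and elsewhere stand without a background. In BAT, Slc16a12 had at most 0.438 RPKM.

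A list of 23 genes of calcium cycling, of which 21 were in the tables, was read in the same way. In BAT edgeR and DESeq2 called 0 of 15, with 4 at an unadjusted p below 0.05 and a median difference of -0.14 (log2). Here and elsewhere, the share of all genes at an unadjusted p below 0.05 was not counted, so such numbers stand without a background. In inguinal WAT on HFD, DESeq2 called 3 of 19, all lower in KI mice. EdgeR called 2 of 19, both lower in KI mice, against 11.5% called over all genes. Ryr2, a ryanodine receptor, had 0.379 ± 0.0792 RPKM in WT and 0.0885 ± 0.0183 RPKM in KI mice (SD, n = 8 each; log2 fold change -2.09, SE 0.154, adjusted p = 2.8e-08). Adra1a, a receptor that acts on calcium release, had 1.46 ± 0.167 and 1.01 ± 0.147 RPKM (-0.53, SE 0.0979, adjusted p = 7.6e-04). On chow, where 3.23% of all genes were called, edgeR called 0 of 18, with 8 at an unadjusted p below 0.05, and DESeq2 called 1. Ryr2 had -2.21 there (SE 0.717, adjusted p = 0.0714). In the test between tissues Ryr2 was the 1 gene of the list that was called, with a KI effect greater in BAT by 1.77 (SE 0.341, adjusted p = 0.00131). The muscle members of the list followed the muscle transcripts: Atp2a1, the pump of fast muscle, had 48021 counts in the chow-fed KI mouse 4 and 6 to 518 counts in the other mice on chow, and Ryr1 had 8317 counts in that mouse. Sarcolipin, Sln, had at most 93 counts in any mouse.

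Markers of other cell types stood beside these comparisons as follows. Of 8 brown adipocyte markers, 5 were tested in inguinal WAT, and Cidea and Cox8b were called higher in KI mice on each diet. Of all genes tested in inguinal WAT, 11.5% were called on HFD and 3.23% on chow. The sums of the 8 brown adipocyte markers on HFD were 33.2 to 89.1 RPKM in WT and 58.1 to 137 RPKM in KI mice. On chow they were 137 to 375 RPKM in WT (median 214) and 319 to 1552 RPKM in KI mice (median 885). Ucp1 had at most 45 counts in any inguinal WAT library. Of 6 adipocyte markers in inguinal WAT, Adipoq and Lep were called lower in KI mice on HFD. The list was mixed, with a positive log2 fold change for 2 of the 6 and a median of -0.13. Of 4 fibroblast markers, Lum was called lower there, with a median of -0.40. Both counts stand against 11.5% of all genes called. In BAT, edgeR called 0 of 6 adipocyte markers, of which 4 had an unadjusted p below 0.05, and their sums were 4983 to 5509 RPKM in WT and 4105 to 4711 RPKM in KI mice, without overlap. Of single genes tested in BAT, 3.69% were without overlap. EdgeR also called 0 of 4 fibroblast markers in BAT, all 4 with an unadjusted p below 0.05 and with a median log2 fold change of -0.70. The share of all genes at that unadjusted p was not counted. The brown adipocyte markers in BAT summed to 15911 to 25644 RPKM in WT and to 18561 to 32070 RPKM in KI mice. The part of these shifts in the levels of Ckb and Slc6a8 was not tested.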

How the data were processed

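Libraries were made by the authors from poly(A) RNA and sequenced as read pairs of 150 bases. Per the study's methods, reads were trimmed with cutadapt, aligned with STAR to GRCm38 and counted per gene with featureCounts; versions, annotation release and strand setting are not given in the sources used here. The deposited values are raw counts per gene in 3 tables, 1 per tissue and diet, with 41 mouse columns for 57 labelled libraries. Entries without a count and repeated symbols were left out, which kept 52853 genes. Counts were tested with edgeR 4.0.16 (quasi-likelihood, robust, TMM, filterByExpr; R 4.3.3), separately for each tissue and diet for KI against WT and jointly for comparisons across tables, with Benjamini-Hochberg adjustment over all genes and calls at 0.01. DESeq2 1.42.0 and the other settings in the closing section were alternatives. Intervals are 95%. Each level is an RPKM value computed from the counts on TMM-scaled libraries, in place of the planned TPM, because the 69-base gene mt-Ts1 took a large share of TPM that differed between the genotypes. The fit was tested on simulated data.

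The text names the 8 genes, called genes of the context lists and the 3 most alike genes of each member, and the muscle genes and markers beside them were named after values were seen. The values of 1 gene of the context lists are not reported here. The members and lists were chosen with earlier results of these data known. Within each tissue and diet, the columns of counts are separate mice by their labels. The labels do not say whether BAT and inguinal WAT came from the same mice. Whether equal replicate numbers pair mice was checked by the correlation of deviations from group means, which ranged from -0.30 to 0.69 over the same-numbered mice of 7 pairs of groups. In none of the 7 were all mice above 0.1; BAT with inguinal WAT on HFD in WT mice had the most, 3 of 6, with -0.074 to 0.24. The numbers were not used as pairs. Totals limit precision mostly for Gatm, Ckmt1 and Ckmt2.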

Additional observations from a re-analysis of the deposited data

Results flagged for a closer look

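Of 48 combinations of a gene and a group, 9 had a mouse far from the others of its group by Dixon's test. By chance the test flags about 1 in 20 for normally distributed values, which these RPKM values need not be. In groups near 0, a few counts in 1 library are enough for a flag, so the number of flags shows no excess. In the chow-fed WT mouse 4 the flagged values were Ckb at 56.3 RPKM, Slc6a8 at 9.28 RPKM and Ckmt1 at 0.362 RPKM. In the chow-fed KI mouse 4, the library with muscle transcripts, the flagged value was Ckmt2 at 85.9 RPKM. Alpl stood apart at 4.28 RPKM in the chow-fed WT mouse 5 and at 4.47 RPKM in the chow-fed KI mouse 6. Ckmt1 stood apart at 0.954 RPKM in BAT of WT mouse 5, at 0.225 RPKM in BAT of KI mouse 4 and at 0.202 RPKM in inguinal WAT of KI mouse 3 on HFD, all on 17 counts or fewer. The KI effect on Ckb differed between BAT and inguinal WAT by 1.32 on the log2 scale in the test of the difference itself.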

How the results depend on the processing

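The number of the 8 genes called for KI against WT mice in BAT was 2. It was 1 without the filter on low counts (Ckb then had an adjusted p of 0.0187). It was also 1 without the libraries chosen for muscle transcripts (4 in BAT, KI mice 3 and 5 in inguinal WAT on HFD, KI mouse 4 on chow) or above the muscle limit of 500 RPKM. Both ways of leaving out libraries were chosen after seeing the data, as were leaving out mitochondrial genes and summing Ckb with its copy. TPM, the planned measure, was kept as an alternative for the levels. For the difference between tissues the number was 1 (Ckb); it was 2 at an adjusted p below 0.05 and 0 without the filter, without mitochondrial genes, with the replicate block (Ckb 1.10, adjusted p = 0.0726), with 1 fit of all 6 groups and without the libraries above the muscle limit. For HFD against chow the number in WT mice was 2 and fell to 1 with the replicate block, and in KI mice it was 2 and fell to 0 without the chosen muscle libraries and to 0 without those above the limit. Leaving out 1 mouse at a time gave 0 to 2 in BAT, 0 to 1 for the difference between tissues, 1 to 2 for diet in WT mice and 1 to 2 for diet in KI mice. With the replicate block the other numbers of calls stayed within 1.5 times; the numbers share no stated origin. The causes were not tested.

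Changes of sign were in log2 fold changes that were not called. Ckmt2 reversed for KI against WT in inguinal WAT on HFD without the chosen muscle libraries (-3.23) and with the block (-1.11), for the difference between tissues (1.38) and BAT against inguinal WAT in WT mice (-3.56) without them, and for HFD against chow in KI mice without them (0.54) and with the block (2.68). Without the libraries above the muscle limit, Ckmt2 reversed for the difference between tissues (2.88), for BAT against inguinal WAT in WT (-1.50) and KI mice (1.38) and for HFD against chow in KI mice (0.57), Ckb reversed for KI against WT in inguinal WAT on HFD (0.14), and Gatm for the difference between diets (-0.070). Slc6a8 in inguinal WAT on HFD had 0.0034 with the block. For the difference between diets, Alpl had -0.017 by DESeq2, -0.017 with RLE size factors, -0.013 with at least 10 counts in every mouse, -0.017 without mitochondrial genes, -0.039 without the chosen muscle libraries and -0.026 in 1 fit of all groups, and Gatm had -0.054 with the block. Leaving out 1 mouse at a time, the ranges that crossed 0 were as follows. For KI against WT in inguinal WAT on HFD they were -0.18 to 0.025 for Ckb, -0.70 to 0.84 for Ckmt2, -0.094 to 0.058 for Gatm, -0.094 to 0.053 for Slc6a8 and -0.0095 to 0.17 for Alpl. On chow they were -0.19 to 0.037 for Gatm and -0.044 to 0.018 for Atp2a2. For the difference between tissues Gatm had -0.52 to 0.017. For the difference between diets they were -0.13 to 0.10 for Alpl, -0.030 to 0.18 for Gatm and -7.07 to 1.40 for Ckmt2. For HFD against chow in KI mice they were -4.24 to 4.24 for Ckmt2 and -0.024 to 0.19 for Slc6a8. The log2 ratio of KI to WT group means was also taken with TPM, without a test. In inguinal WAT on HFD it was 0.37 for Ckb, 0.45 for Gatm and 0.45 for Slc6a8, against -0.093, -0.017 and -0.022 with RPKM. On chow it was 0.070 for Atp2a2, against -0.0072. In BAT it was 0.062 for Gatm, against -0.15. For the genes called in BAT it kept its sign, with 1.37 for Ckb and 0.91 for Slc6a8.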
